A study of Mus musculus with 5 samples.

Results

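The nuclear-encoded subunits of the respiratory chain were represented by 104 probes for 74 genes, of 20355 probes and 9930 named genes on the array. A probe was a member if its annotated symbol began with Nduf (assembly factors named Ndufaf left out), Uqcr or Atp5, belonged to Cox4 to Cox8, or was Sdha, Sdhb, Sdhc, Sdhd, Cyc1 or Cycs. Complex I held 42 probes for 31 genes, complex II 4 probes for 4 genes, complex III 11 probes for 8 genes, complex IV 23 probes for 16 genes and complex V 24 probes for 15 genes. Cycs, Ndufa4, Ndufa4l2, Cox4i2 and Atp5g1 were not analysed here, and neither was Pitx3 itself.

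Liver RNA of 5 male mice, 17 weeks old and with the strain label Pitx3eyl-/-, was compared with RNA from wild-type mice on 2-colour cDNA arrays. Eyeless (eyl) mutates Pitx3, which encodes a homeodomain factor that the lens and midbrain dopamine neurons need to develop. Each array carried 1 mutant animal beside a wild-type RNA pool, made of 4 mice per the sample labels and of 6 per the labelling protocol. The mutant RNA carried the dye Cy5 on replicates 1, 2 and 4 and Cy3 on replicates 3 and 5. No wild-type animal was hybridised alone, so the pool counted as 1 control sample and the spread between wild-type animals is in none of the errors below. The labels give neither a litter nor a genetic background for either side. Values are log2 ratios read as mutant over pool, a direction that is likely and not known. It rests on the mutant being listed as the first channel and on the sign of the coded values (sizes over 12 that stand for no ratio), which was positive on the Cy5 arrays and negative on the Cy3 arrays.

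The respiratory chain sits in the inner mitochondrial membrane. Complexes I and II pass electrons from NADH and succinate to ubiquinone, complex III passes them on to cytochrome c and complex IV to oxygen. Complexes I, III and IV pump protons as they do so, and complex V, the ATP synthase, lets the protons back to make ATP. Liver depends on it for the ATP that gluconeogenesis and urea synthesis consume. Most subunits are encoded in the nucleus, and the promoters of many of them carry sites for the factors NRF1, GABP (an ETS factor) and YY1.

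Stretches of 6 of these promoters are shown because they carry the motifs in genes whose values are described below. The sequences are RefSeq's for the mouse build GRCm38.p6, read in the direction of the gene and ending at or before its annotated start, each on the minus strand. Capitals mark the match, which is the NRF1 motif with a free base (GCGCA, 1 free base, GCGC, on either strand) in all but Uqcr11, where it is the ETS motif CCGGAAGT.
Ndufs6, chr13:73328483-73328518: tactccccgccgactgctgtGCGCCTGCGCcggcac
Sdha, chr13:74350266-74350315: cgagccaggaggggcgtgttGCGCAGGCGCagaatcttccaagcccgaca
Sdhd, chr9:50603899-50603948: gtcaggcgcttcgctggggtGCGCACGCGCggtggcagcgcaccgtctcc
Uqcr11, chr10:80406860-80406907: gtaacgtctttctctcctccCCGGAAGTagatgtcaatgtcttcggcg
Cox6a1, chr5:115349091-115349140: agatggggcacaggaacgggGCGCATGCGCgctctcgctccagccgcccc
Atp5c1, chr2:10080433-10080469: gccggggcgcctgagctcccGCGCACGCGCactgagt

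A window of 250 bases before to 50 bases after the start was given for 61 of the 74 member genes. Searched on both strands, the NRF1 motif with the free base was found in 14 of the 61 genes (23.0%), against 7.17% of 17492 coding genes. They were Ndufa5, Ndufa6, Ndufa8, Ndufb4 and Ndufs6 of complex I, Sdha and Sdhd of complex II, Uqcrc1 of complex III, Cox6a1 of complex IV, and Atp5c1, Atp5g3, Atp5h, Atp5k and Atp5o of complex V. The full NRF1 motif (GCGCAT and then GCGC), which the relaxed one includes, was in 3 of the 61 genes (4.92%), Atp5k, Cox6a1 and Uqcrc1, against 1.47% of coding genes. The YY1 motif AAGATGGC was in 10 genes (16.4%), against 3.57%, and CCGGAAGT in 5 genes (8.2%), against 5.69%. Of the YY1 matches, 7 were in genes of complex I and 3 in genes of complex V. Over all 32851 windows of this length, the shares with a match were 4.6% for the relaxed and 0.971% for the full NRF1 motif, 2.75% for AAGATGGC and 3.89% for CCGGAAGT. Of 52 cytosolic ribosomal protein genes with such a window, 11.5% had a match to the relaxed and 3.85% to the full NRF1 motif. AAGATGGC was in 9.62% of these genes and CCGGAAGT in 21.2%, the last a larger share than among the members. A match describes the letters of the window only.

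Subunit probes were measured more often than the array as a whole. Of the 104 probes, 63 (60.6%) had a value on all 5 arrays, against 31.3% of all 20355 probes. A further 8 had values on 4 arrays, 14 on 3, 15 on 2, 3 on 1 and 1 on none. Missing values made up 21.9% to 33.3% of an array, and an array's SD over all its probes was 1.51 to 1.72. A probe was tested if it had 4 or 5 values that included both dye orientations, as 71 probes for 53 member genes did (68.3% of the member probes, against 55.5% of all). The 21 genes without a tested probe included Sdhb, the iron-sulphur subunit of complex II, Ndufs8, an iron-sulphur subunit of complex I, and Cox8a, the form of subunit 8 used in liver. The measured value of a member farthest from 0 was -7.57, for Uqcrq on replicate 1, and 2 member values were codes without a ratio. Ratios give no levels, so the liver label could be checked only by which probes were measured. Of 9 hepatocyte marker probes 6 had values on all 5 arrays, against 1 of 7 for striated muscle, 0 of 5 for brown fat, 1 of 3 for white fat and 1 of 4 for testis. Markers of other cells that liver holds were measured at least as often, with 6 of 7 probes for blood and 3 of 4 for macrophages. The blood probes stand for 2 genes and the macrophage probes for 3.

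Subunit ratios also varied less between the 5 arrays than those of most other probes. The median SD between arrays was 0.50 for the 63 member probes measured on all 5 (quartiles 0.40 and 0.65), against 0.71 for the 6364 such probes of the whole array (0.43 and 1.28). An SD under 0.5 was found for 33 of the 63 (52.4%), against 32.6% of all, and an SD over 1 for 8 of the 63 (12.7%), against 34.7%. Cytosolic ribosomal protein probes, which also stem from highly expressed genes, had a median SD of 0.53. By complex the median SD was 0.48 for I, 0.36 for II, 0.53 for III, 0.47 for IV and 0.54 for V.

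**Figure D1:**
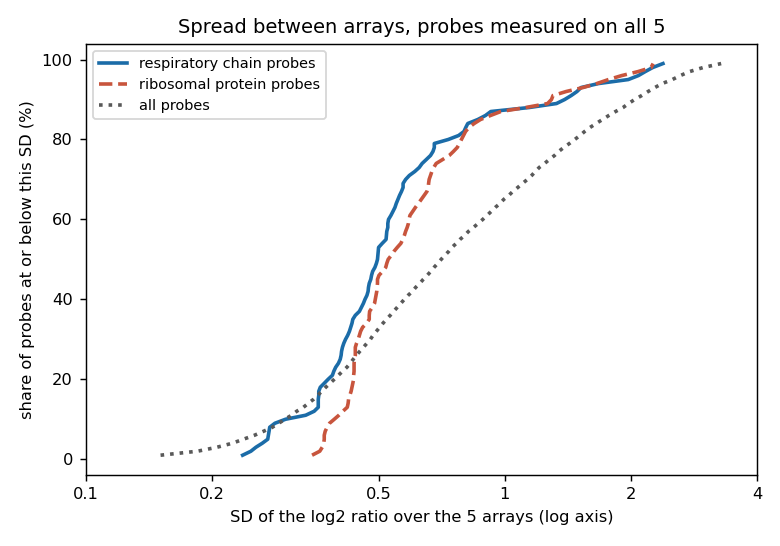
Share of probes measured on all 5 arrays whose SD between arrays lies at or below the value on the x axis (log2 ratio, log axis), for respiratory chain probes, ribosomal protein probes and all probes. The medians are 0.50, 0.53 and 0.71, and the first 2 curves run close together.

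The medians of the complexes differed between the arrays. On replicate 1 the median log2 ratio was 0.26 for complex I, 0.56 for II, 0.17 for III, 0.17 for IV and 0.54 for V. On replicate 2 it was -0.56, -0.04, -0.79, -0.32 and -0.30 in the same order. All complexes were thus above 0 on replicate 1 and below 0 on replicate 2, with a wide range on replicate 2, complex II being near 0. With the probes of a gene averaged first, the medians on replicate 1 were 0.30, 0.56, -0.51, -0.06 and 0.24, so complexes III and IV were then below 0 there. On replicate 3 the medians of complexes I to V were -0.38, -0.36, -0.36, -0.47 and -0.47. On replicate 4 they were -0.18, -0.13, 0.02, -0.15 and -0.09, and on replicate 5 they were 0.06, -0.09, -0.19, -0.13 and 0.04. The last 2 arrays had every complex within 0.2 of 0. Complex II rests on 3 or 4 measured probes an array, complex III on 8 to 10, complex IV on 18 to 22, complex V on 19 to 22 and complex I on 31 to 35.

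**Figure D2:**
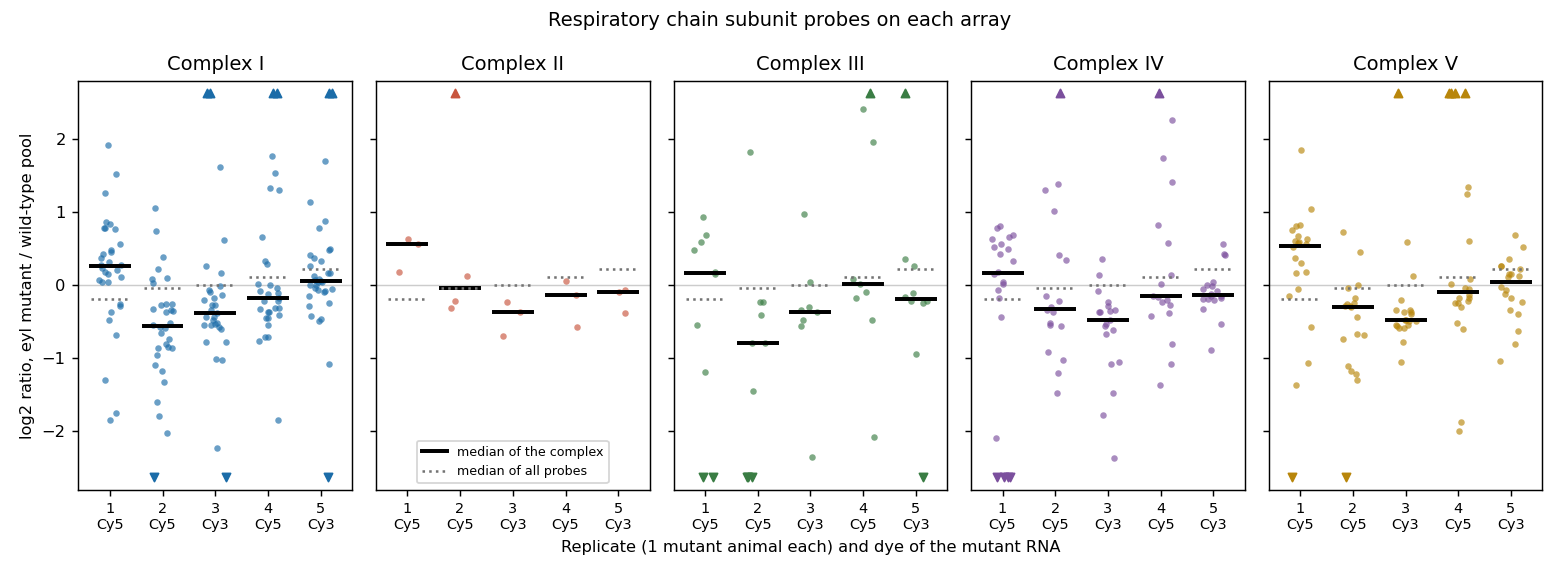
Log2 ratio of each measured subunit probe (points) on each of the 5 arrays, by complex, with the mutant's dye under each replicate; black bars are the median of the complex, dotted lines the median of all probes of the array, and triangles at the edge the 31 of 422 points beyond 2.5 in size. Over single probes, every complex has its highest median on replicate 1. With the probes of a gene averaged, complex III has its highest on replicate 4, at 0.05, against -0.51 on replicate 1.

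Arrays were not centred, and their own medians over all probes were -0.19, -0.04, -0.00, 0.11 and 0.23 for replicates 1 to 5. The median over all member probes was 0.28, -0.36, -0.39, -0.13 and -0.04. Set against the array's own median, the members stood at 0.47 on replicate 1 and at -0.33, -0.39, -0.24 and -0.27 on replicates 2 to 5. That median includes probes measured on few arrays. Probes measured on all 5 arrays had medians of 0.11, -0.00, -0.05, -0.09 and 0.10 over the whole array. The member probes measured on all 5 had 0.49, -0.35, -0.38, -0.18 and -0.05. Against these like probes, members were on the same side on each array, but closer on replicates 4 and 5. Over single probes, all 5 complexes were above the array median on replicate 1 and below it on each of the other 4 arrays. Among probes measured on all 5 arrays, this did not hold for complex III on replicate 4, at -0.03 against -0.09. Complex III turned on replicate 1 with the probes of a gene averaged, where its median of -0.51 was below the array's -0.19. From replicate 1 to replicate 5, member values below 0 made up 29.2%, 78.3%, 84.0%, 59.0% and 53.5%, against 57.8%, 51.3%, 50.1%, 46.2% and 39.4% of all probes. The member medians were 0.28, -0.36 and -0.13 where the mutant RNA carried Cy5 (3 arrays), and -0.39 and -0.04 where it carried Cy3 (2 arrays). Animal and hybridisation cannot be told apart with 1 array for each animal. In bulk liver, fewer cells of a type and less RNA per cell cannot be told apart either.

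This order of arrays, noticed after the values were seen, ran through single probes. Of the 63 member probes measured on all 5 arrays, 32 (50.8%) lay above the array median on replicate 1 and below it on replicates 2 to 5, against 10.9% of all 6364 probes. They were 10 of 24 in complex I, 2 of 3 in complex II, 4 of 6 in complex III, 7 of 13 in complex IV and 9 of 17 in complex V. Ribosomal protein probes had the same order in 23 of 47 cases (48.9%), and their medians were 0.21, -0.58, -0.50, -0.05 and 0.17 on replicates 1 to 5. Among probes with an SD under 0.5, it was found for 19 of 33 member probes (57.6%), against 20.9% of 2077 probes of the whole array. The order was thus found in both lists.

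**Figure D3:**
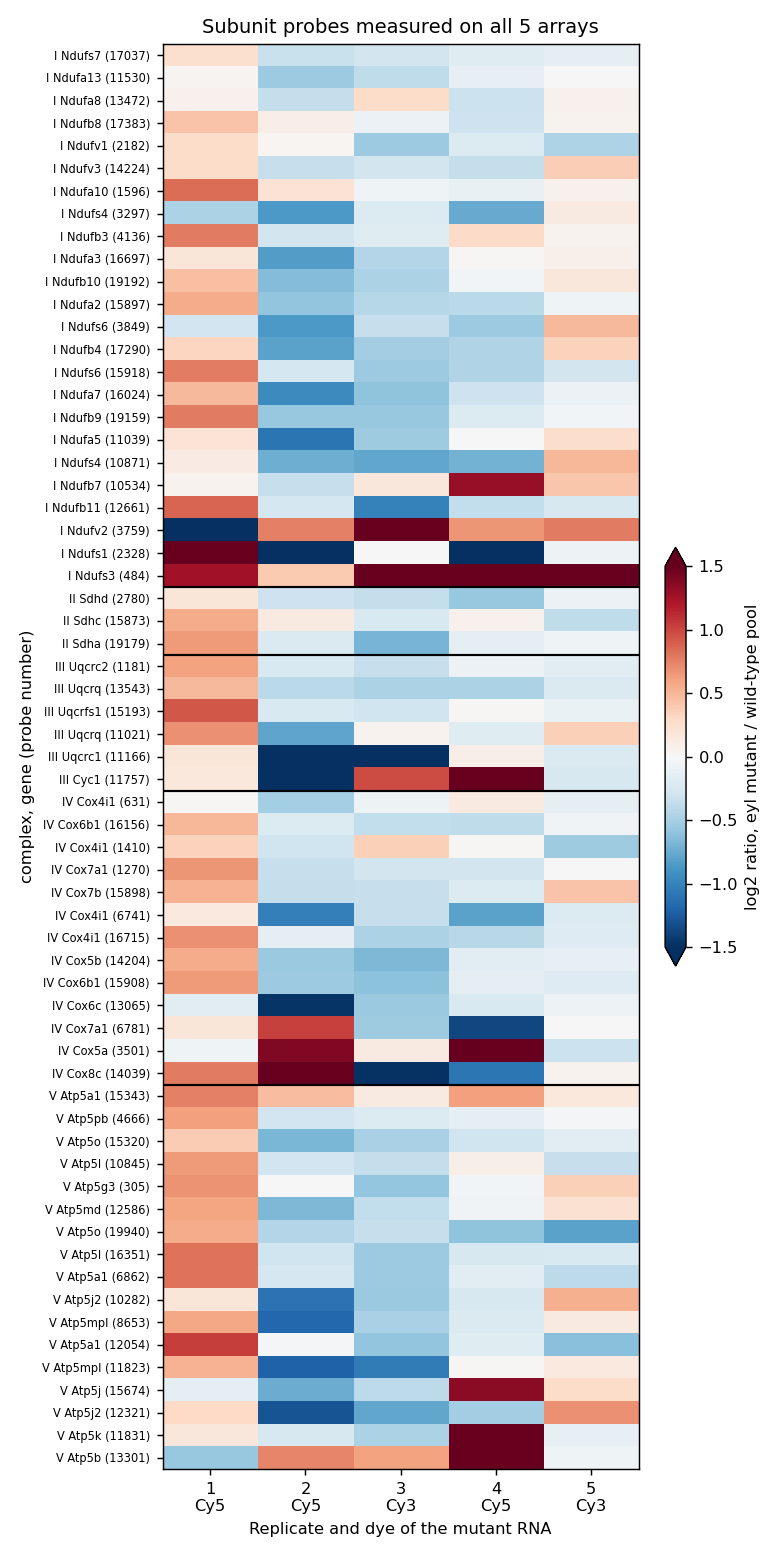
Log2 ratio (colour, held at 1.5 in size) of the 63 subunit probes measured on all 5 arrays, with probes in rows by complex and by growing SD between arrays, and replicates in columns with the mutant's dye. The column of replicate 1 is mostly above 0 and those of replicates 2 and 3 mostly below 0, while Ndufs3 is above 0 in all columns.

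Across the 5 animals no subunit passed the test against the wild-type pool. limma called 0 of the 71 tested member probes at an adjusted p under 0.05, against 0 of 11300 probes in all (0% called). The lowest adjusted p of any probe was 0.999. At an unadjusted p under 0.05 there was 1 member probe, Ndufs3, with a coefficient above 0, where 4.16% of all probes lay under that limit, 2.35% above 0 and 1.81% below. The mutant coefficient, which is the mean log2 ratio with both dye orientations weighted equally, was below 0 for 54 of the 71 member probes (76.1%), against 46.1% of all probes. Its median was -0.16 (quartiles -0.25 and -0.01), against 0.04 for all tested probes. A coefficient over 1 in size was found for 4 member probes (5.63%), of Ndufs3, Ndufs7, Uqcrc1 and Uqcr11, against 13.2% of all.

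By complex the median coefficient was -0.20 for I (20 of 26 probes below 0), -0.14 for II (3 of 3), -0.08 for III (6 of 9), -0.14 for IV (12 of 15) and -0.16 for V (13 of 18). Between single arrays, the median over a complex's measured probes had an SD of 0.33 for I, 0.34 for II and 0.37 for III. It was 0.24 for IV and 0.39 for V (n = 5 arrays). This is the spread of single arrays over all measured probes, and not the error of a median coefficient over tested probes. Ribosomal protein probes had a median of -0.17, with 46 of 61 below 0 (75.4%). The count below 0 moved with single arrays, with 3 values enough when 1 array was left out. Without replicate 2 it was 46 of 77 (59.7%), without replicate 3 it was 45 of 73 (61.6%), and without replicate 1 it was 59 of 72 (81.9%). The shares of all probes were 46.6%, 42.7% and 45.3% in the same order. If the 2 Cy3 arrays ran the other way, 26 of 71 (36.6%) would be below 0, against 54.5% of all probes. The mutant coefficient would then be what is the dye coefficient here. The dye coefficient had an unadjusted p under 0.05 for 1 member probe, again Ndufs3, against 7.38% of all probes.

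**Figure D4:**
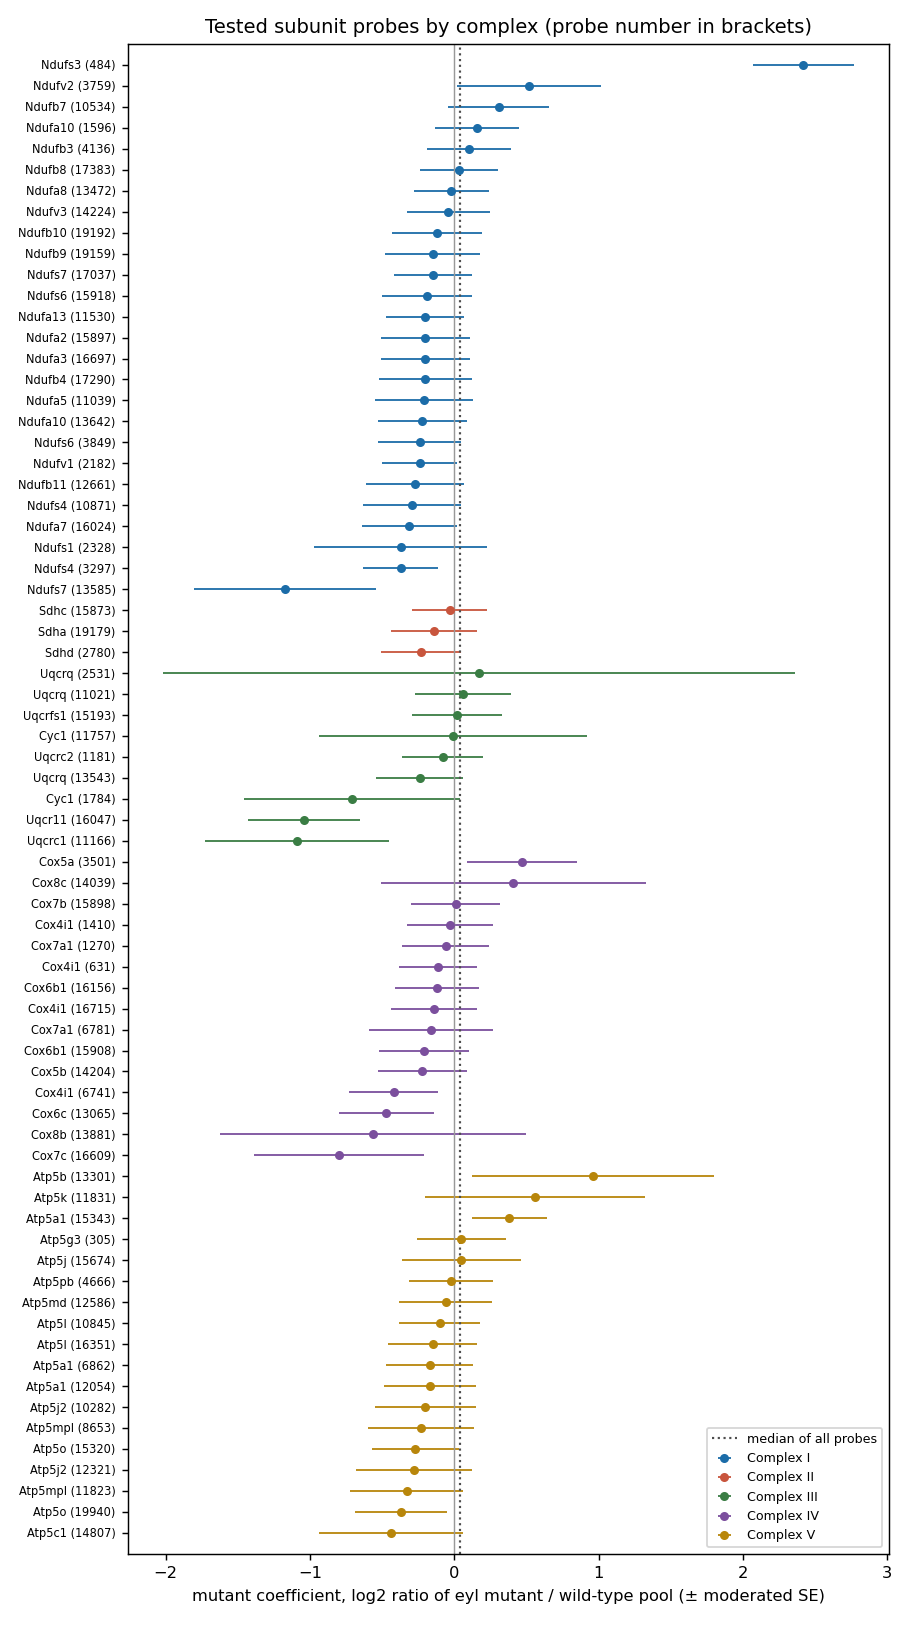
Mutant coefficient (log2 ratio of eyl mutant over wild-type pool, points) with its moderated SE (bars) for the 71 tested subunit probes, grouped by complex, with the median of all probes as a dotted line. Most of the bars reach that line, and Ndufs3 stands apart at 2.42.

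In complex I, the N module takes up electrons from NADH. Its 9 tested probes had a median coefficient of -0.24, with 8 below 0, and none had an unadjusted p under 0.05. Ndufv1, which binds NADH and FMN, had log2 ratios of 0.28, 0.03, -0.55, -0.21 and -0.46 on replicates 1 to 5. They lay on both sides of 0, and the coefficient was -0.24 ± 0.26 (moderated SE, 5 arrays). Ndufv2, an iron-sulphur subunit, had -1.85 on replicate 1 and 0.75, 1.62, 0.66 and 0.78 on the others, with a coefficient of 0.52 ± 0.50. It ran opposite to most members on replicate 1. Ndufs1, which carries iron-sulphur clusters that pass electrons on, had 1.52, -1.79, -0.01, -1.84 and -0.08, and a coefficient of -0.37 ± 0.60. Without replicate 1, Ndufs1 had a coefficient of -0.93 and an unadjusted p of 0.0329, and Ndufv2 one of 0.95 and 0.0441, with a limma adjusted p of 0.758 for both. The accessory subunits Ndufs4 and Ndufs6 stabilise the module. The 2 probes of Ndufs4 gave -0.37 ± 0.26 and -0.29 ± 0.34, and those of Ndufs6 gave -0.24 ± 0.29 and -0.19 ± 0.31.

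The Q module hands electrons to ubiquinone. Its core subunit Ndufs3 (probe 484) had log2 ratios of 1.26, 0.39, 3.18, 1.77 and 4.24 on replicates 1 to 5. All 5 were above 0, and the pair with the mutant in Cy3, replicates 3 and 5, was the highest. The coefficient was 2.42 ± 0.35 with an unadjusted p of 0.000837, the 3rd lowest of all 11300 probes, and a limma adjusted p of 0.999. The dye coefficient was -1.29 with an unadjusted p of 0.0138 and an adjusted p of 0.498. Over the alternatives run, the adjusted p of the mutant coefficient stayed between 0.498 and 1.0. The lower end came with the 2 Cy3 arrays turned, where the coefficient was -1.29, which restates the dye coefficient. Ndufs3 had 1 probe, and 2 of its 5 values lay at ratios of small whole numbers. With such values left out it was not tested.

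Ndufs7, an iron-sulphur subunit next to the ubiquinone site, had a pair of tested probes that differed in size. Probe 13585 had -1.30, -2.03, -2.23 and 0.88 on replicates 1, 2, 3 and 5 and no value on replicate 4, with a coefficient of -1.17 ± 0.63 and an unadjusted p of 0.132. Probe 17037 had 0.24, -0.33, -0.27, -0.18 and -0.14, with a coefficient of -0.15 ± 0.27. Both coefficients were below 0, but on replicates 1 and 5 the probes had opposite signs. Of the 4 values of probe 13585, 2 lay at ratios of small whole numbers. Without replicate 5, probe 13585 had a coefficient of -1.95 and an unadjusted p of 0.0245 (limma adjusted p 0.905). Ndufs8 was measured on 1 array, at -1.02 on replicate 3, a value that lay at a ratio of small whole numbers.

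The membrane arm pumps protons. Its inner part had 5 tested probes with a median coefficient of -0.20 and 4 below 0, and its outer part 7 probes with a median of -0.12 and 4 below 0. Ndufa13, an accessory subunit also known as GRIM-19, had one of the smallest spreads, with 0.04, -0.55, -0.38, -0.12 and 0.00 and an SD of 0.26. Ndufa10 had one probe with a coefficient of 0.16 ± 0.29 and another with -0.22 ± 0.31. The coefficients of the whole arm stayed between -0.27, for Ndufb11, and 0.31, for Ndufb7.

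Complex II, succinate dehydrogenase, also belongs to the tricarboxylic acid cycle. Sdha, the flavoprotein that oxidises succinate, had 0.64, -0.22, -0.70, -0.13 and -0.06 on replicates 1 to 5, with a coefficient of -0.14 ± 0.30. Sdhc, a membrane anchor, had 0.56, 0.13, -0.23, 0.06 and -0.38, with a coefficient of -0.03 ± 0.26. Sdhd, the other anchor, had 0.18, -0.31, -0.36, -0.57 and -0.09, with a coefficient of -0.23 ± 0.28. All 3 genes were highest on replicate 1. Sdha and Sdhd are those with the NRF1-like matches printed above. Sdhb was measured on replicate 2 alone, at 2.67, a value that lay at a ratio of small whole numbers. The other 14 tested probes of the tricarboxylic acid cycle had a median coefficient of -0.10, with 8 below 0 and none at an unadjusted p under 0.05. The lowest p on each side belonged to Suclg1, of succinyl-CoA ligase, at 0.39 ± 0.40, and Fh1, fumarate hydratase, at -0.35 ± 0.28.

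In complex III, 2 of the 6 probes measured on all 5 arrays had an SD between arrays over 1 (33.3%), against 34.7% of all such probes. Uqcrc1, a core protein, had 0.18, -2.95, -2.35, 0.09 and -0.22 on replicates 1 to 5. It was far below 0 on replicates 2 and 3 and near 0 on the rest, with a coefficient of -1.09 ± 0.64 and an unadjusted p of 0.146. Uqcrc2, the partner core protein, had 0.60, -0.23, -0.34, -0.09 and -0.16 and a coefficient of -0.08 ± 0.28. Replicate 1 stood alone above 0. Uqcrfs1, the Rieske iron-sulphur protein, had 0.93, -0.23, -0.30, 0.02 and -0.10 and a coefficient of 0.02 ± 0.31. Cyc1, cytochrome c1, had 2 tested probes that went apart on single arrays. Probe 11757 had 0.16, -3.75, 0.98, 2.42 and -0.24, and probe 1784 had -1.19, -0.56, 1.96 and -3.03 on replicates 1, 3, 4 and 5. Their coefficients were -0.01 ± 0.93 and -0.71 ± 0.75.

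Uqcr11, a small subunit at the edge of the complex, had -0.79, -0.37, -2.08 and -0.94 on replicates 2 to 5 and no value on replicate 1. All 4 measured values were below 0. The coefficient was -1.04 ± 0.39 with an unadjusted p of 0.0529, the lowest p among members with a coefficient below 0, and a limma adjusted p of 0.999. Without the dye term the unadjusted p was 0.043 and the adjusted p 0.998. The ETS match printed above lies 58 bases before its start. Uqcrq, another small subunit, had 3 tested probes with coefficients of 0.17 ± 2.19, 0.06 ± 0.33 and -0.24 ± 0.30. The first of them spanned values from -7.57 to 3.24 between arrays. The median of complex III was -0.48 without replicate 4 and -0.50 when the probes of a gene were averaged, against -0.08 over single probes.

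In complex IV, cytochrome c oxidase, the ubiquitous subunits had 11 tested probes with a median coefficient of -0.14, of which 9 were below 0. Cox4i1, the regulatory subunit 4 of most tissues, had 4 probes with coefficients of -0.11 ± 0.27, -0.03 ± 0.30, -0.42 ± 0.31 and -0.14 ± 0.30. Probe 6741 had the lowest of these, with 0.15, -1.03, -0.34, -0.80 and -0.20 on replicates 1 to 5. Cox6b1, which faces the intermembrane space, had 0.64, -0.54, -0.61, -0.14 and -0.19 on probe 15908 and 0.50, -0.21, -0.37, -0.38 and -0.05 on probe 16156, with coefficients of -0.21 ± 0.31 and -0.12 ± 0.29. The signs of the pair matched on every array. Cox5b had 0.56, -0.56, -0.67, -0.16 and -0.12, with a coefficient of -0.22 ± 0.31. Cox6b1 and Cox5b followed the order of the complex, high on replicate 1 and low on replicates 2 and 3. Cox5a, a subunit on the matrix side, had -0.06, 1.39, 0.14, 1.75 and -0.32 and a coefficient of 0.47 ± 0.38. It was high on replicates 2 and 4 and did not share that order.

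Cox6c, a membrane-spanning subunit, had -0.17, -1.47, -0.56, -0.23 and -0.08 on replicates 1 to 5. It was the one member probe below 0 on all 5 arrays, with a coefficient of -0.47 ± 0.33 and an unadjusted p of 0.214. Of the 63 member probes measured on all 5 arrays, 3 (4.76%) had 1 sign on every array, against 5.99% of all 6364 probes (3.65% above 0 and 2.34% below). The other two, above 0, were Ndufs3 and a probe of Atp5a1. Cox7c, a small transmembrane subunit, had -2.09, -1.05, 0.83 and -0.89 on replicates 1, 3, 4 and 5, with a coefficient of -0.80 ± 0.59. Without replicate 4 the coefficient was -1.53 with an unadjusted p of 0.033 (limma adjusted p 0.963). Cox6a1, with the full NRF1 motif printed above, had 2 probes with 3 values each and was not tested. Probe 17353 had 0.43, -0.23 and -0.15 on replicates 1, 3 and 5, and probe 8371 had -2.74, -0.92 and 0.58 on replicates 1, 2 and 4. Cox8a, not tested either, had -3.19, -1.20 and -1.78 on replicates 1 to 3, all below 0.

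Isoforms of complex IV that are known mainly from muscle, brown fat or testis had 7 probes, of which 3 were measured on all 5 arrays and 4 were tested. Cox7a1, the heart and muscle form of subunit 7a, was measured on all 5 arrays by 2 probes, with coefficients of -0.06 ± 0.30 and -0.16 ± 0.43. Its probe 1270 had 0.66, -0.34, -0.28, -0.27 and 0.01, in the order of the ubiquitous subunits. Its probe 6781 had 0.18, 1.02, -0.53, -1.37 and -0.01 and did not share that order on replicate 2. The pair had the same sign on 3 of the 5 arrays. Cox8b, the muscle form of subunit 8, had -2.73, 0.35, -1.08 and 2.27 on replicates 1 to 4. Cox8c, the testis form, had 0.78, 4.89, -1.48, -1.08 and 0.05. Cox6a2, the muscle form of subunit 6a, had -4.18, 1.30 and -0.36 on replicates 1 to 3. The probes of Cox6b2 and Cox7b2, known from testis, had 2 values each. None of the 4 tested isoform probes had an unadjusted p under 0.05, and their coefficients lay between -0.56 and 0.41. Of 7 striated muscle marker probes 3 were tested, with a median coefficient of 0.06 and 0 of 3 at an unadjusted p under 0.05.

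In complex V, the F1 head makes ATP. Atp5a1, its alpha subunit, had 3 probes that did not give the same result. Probe 15343 had 0.76, 0.46, 0.13, 0.61 and 0.16 on replicates 1 to 5, all above 0, with a coefficient of 0.38 ± 0.26 and an unadjusted p of 0.198. Probe 6862 had 0.82, -0.25, -0.55, -0.17 and -0.39, and probe 12054 had 1.04, -0.03, -0.59, -0.18 and -0.63. These had a coefficient of -0.17 each, and their signs matched on every array. Atp5b, the catalytic beta subunit, had -0.57, 0.73, 0.60, 4.82 and -0.06. Replicate 4 stood far above the rest, and the coefficient was 0.96 ± 0.84. Atp5c1, the rotor's gamma subunit, had -1.36, -0.18, -1.88 and 0.26 on replicates 1, 2, 4 and 5 and a coefficient of -0.44 ± 0.50. Atp5d, the delta subunit of the same stalk, was measured on 3 arrays, at -0.05, -0.34 and 0.11.

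The peripheral stalk holds the F1 head still. Atp5o, the subunit that confers sensitivity to oligomycin, had 2 probes with 0.38, -0.68, -0.49, -0.30 and -0.17 and with 0.56, -0.44, -0.34, -0.60 and -0.80 on replicates 1 to 5. Both were above 0 on replicate 1 alone, with coefficients of -0.27 ± 0.30 and -0.37 ± 0.32. Atp5pb, the b subunit, had 0.61, -0.29, -0.20, -0.13 and -0.02 and a coefficient of -0.02 ± 0.29. Atp5h, the d subunit, had 3 probes, none with enough values for the test. One of them, probe 18894, had 1.86, 3.11 and 1.25 on replicates 1, 3 and 4, and 1 coded value that was set to missing. Probe 3607 had -3.51, -0.47 and 3.79 on replicates 2, 3 and 4. Probe 19180 was measured on replicates 4 and 5 alone and was below 0 on both. On replicate 4 its sign was thus opposite to that of probe 18894. Where 3 arrays were enough, probe 18894 had a coefficient of 2.33 and an unadjusted p of 0.0171 (limma adjusted p 1.0).

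The ring of c subunits turns as protons pass, and Atp5g3, which encodes one of them, had a coefficient of 0.05 ± 0.31. The small membrane subunits, several of which help to join the synthase into dimers, had 8 tested probes with a median coefficient of -0.17 and 7 below 0. Atp5j2, the f subunit, had a pair of probes with 0.18, -1.11, -0.56, -0.24 and 0.53 and with 0.30, -1.30, -0.78, -0.52 and 0.69. They had the same sign on every array. Atp5l, the g subunit, had coefficients of -0.10 ± 0.28 and -0.15 ± 0.31, and Atp5mpl -0.23 ± 0.37 and -0.33 ± 0.39. Atp5k, the e subunit, was the exception above 0, with 0.17, -0.24, -0.48, 4.31 and -0.12 on replicates 1 to 5 and a coefficient of 0.56 ± 0.76. Replicate 4 stood far above the rest, as it did for Atp5b.

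Probes of the same subunit gene followed each other more often than pairs on the array as a whole. Among 18 pairs of member probes measured on all 5 arrays, from 11 genes, 5 pairs (27.8%) had the same sign on every array, against 6.4% of 625 pairs of all genes. The median difference in size was 0.36, against 0.70 for all pairs, and 73.3% of member array values had the same sign, against 52.8%. The closest pair was that of Atp5mpl, with a median difference of 0.05, and next to it came Atp5l at 0.18 and Atp5j2 at 0.20. The widest were those of Atp5a1 with probe 15343, at 0.68 and 0.73, and Cox4i1 probes 1410 and 6741, at 0.71. Pairs within Cox4i1 and within Atp5a1 share probes and are not independent. Member probes of different genes shared an order of arrays too, as described above. Pairs of different member genes were not compared, so the part of that order in this agreement was not tested. The 15 pairs of ribosomal protein genes followed each other as often or more so: 40.0% had the same sign on every array, 73.3% of their array values had the same sign, and the median difference was 0.28.

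**Figure D5:**
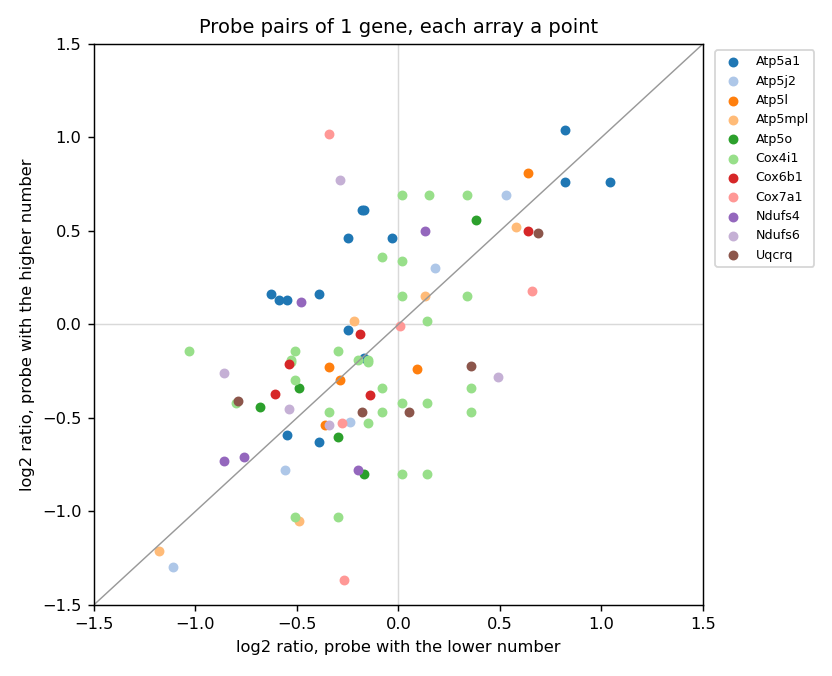
Log2 ratio of one probe against that of another probe of the same gene, 1 point for each of the 5 arrays and each of 18 pairs from 11 subunit genes (colours), with the line of equal values. Of the points, 73.3% lie in the quadrants where both probes have the same sign.

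Gene groups that work with the chain gave no called probe either. Electron entry to coenzyme Q and its synthesis had 18 tested probes, 12 below 0, with a median of -0.15. Here Chdh, choline dehydrogenase, had a coefficient of -1.55 ± 0.65 and Etfa, a subunit of the electron transfer flavoprotein, one of 1.52 ± 0.74. Assembly factors of the complexes had 23 tested probes, 12 below 0, with a median of -0.01; Acad9, of complex I assembly, had 0.72 ± 0.37 and Ttc19, of complex III assembly, -0.66 ± 0.42. Carriers of ADP, phosphate and protons had 6 tested probes, 5 below 0, with a median of -0.20; Atpif1, the ATP synthase inhibitor, had 0.24 ± 0.35 and Vdac3, an outer membrane channel, -0.75 ± 0.67. None of these 3 lists had a probe at an unadjusted p under 0.05. Regulators of mitochondrial DNA expression and biogenesis had 13 tested probes, 6 below 0, with a median of 0.09 and 2 probes at an unadjusted p under 0.05. One of them was Yy1, whose motif is among those counted above, with 1.55, 0.87, 1.66 and 0.69 on replicates 1 to 4 and a coefficient of 1.35 ± 0.40 (unadjusted p 0.0253, limma adjusted p 0.999). Nrf1, whose motif is counted there too, had -3.32, -2.87, -2.85 and 4.16 on replicates 1 to 4 and a coefficient of -1.76 ± 1.70 (unadjusted p 0.356). These regulators thus stood on opposite sides of 0, and the values of Nrf1 lay on both sides. Import and inner membrane organisation had 28 tested probes, 15 below 0, with a median of -0.03. Its lowest p-values belonged to Immt, the mitofilin of the cristae, at -1.67 ± 0.52 (unadjusted p 0.0293) and Timm13, an import chaperone, at 1.60 ± 0.60 (unadjusted p 0.0421), with a limma adjusted p of 0.999 for both.

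Markers of cells that liver holds and of other tissues were set beside these values. Of 7 tested hepatocyte marker probes, 5 were below 0, with a median coefficient of -0.13, and Tat, tyrosine aminotransferase, had -0.78 ± 0.27 (unadjusted p 0.033, limma adjusted p 0.999). The hepatocyte medians on replicates 1 to 5 were -0.07, -0.45, -0.36, 0.02 and -0.01, so the hepatocyte list was below 0 on replicate 1, where the subunits were above it, though not below that array's own median of -0.19. Fgb, fibrinogen beta, had 0.18 ± 0.32. Other lists moved further on replicate 1, though on fewer probes. The striated muscle medians were -4.25, -0.23, -1.18, -1.28 and 0.87 on replicates 1 to 5, those of white fat -2.58, 0.02, 2.99, 0.23 and 2.17, and those of brown fat -1.40, 0.14, 2.07, 0.13 and 1.24. All 3 lists were lowest on replicate 1, where the subunits were highest. The median over all probes was lowest there too, at -0.19, against -0.04, -0.00, 0.11 and 0.23 on replicates 2 to 5. Of the muscle, white fat and brown fat probes, 1 of 7, 1 of 3 and 0 of 5 had values on all 5 arrays. The medians of these lists thus rest on partly different probes from array to array. In these lists the lowest p-values belonged to Myh4 (1.25 ± 0.49) and Tnnt3 (-1.24 ± 1.05) of muscle, Adipoq (1.13 ± 0.81) of white fat and Ppargc1a (0.67 ± 0.75) of brown fat. Testis medians were -0.61, 0.64, -0.34, 1.64 and 0.71, also lowest on replicate 1, with Ldhc at 0.28 ± 0.64. All 3 tested macrophage probes were below 0, with a median of -0.23 and Lyz2 at -0.54 ± 0.39. Their medians by array were -0.15, -0.55, -0.43, -0.39 and 0.80. The blood list had 7 probes for only 2 genes, so its probes are not separate markers. All 6 tested blood probes were above 0, with a median of 0.22 and Alas2 at 0.45 ± 0.29. The medians of the blood list by array were -0.06, 0.17, 0.30, 0.57 and 0.02. The part of these lists in the subunit values was not tested.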

How the data were processed

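Liver RNA of 5 eyl mutant mice was measured on 2-colour arrays against a wild-type pool. The authors deposited log2 ratios, 1 value for each probe and array. The scanner, background correction and normalization behind them are not stated in the labels and so not known here. The number of arrays limits the precision, and the ratios give no depth or signal over background. Values over 12 in size (788, 2 of them in member probes) are codes and were set to missing. No value column was left unused (0 columns). Of the probes, 14030 carried 1 gene symbol, 5 several and 6320 none here; identifiers of 13994 probes matched a RefSeq gene table, which changed 0 member symbols. Values at an array constant plus the log2 of a ratio of whole numbers up to 20 (tolerance 0.0011) made up 22.5% of member values, against 25.5% of all.

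With lmFit and eBayes of limma 3.58.1 in R 4.3.3, an intercept (the mutant coefficient) and a dye term were fitted to 11300 probes with at least 4 values in both orientations. The prior had 2.24 degrees of freedom and an SD of 0.85. The intercept was tested against 0, two-sided, with Benjamini-Hochberg adjustment over all tested probes. The fit was checked on simulated data. Each fit thus measures the spread between 5 arrays of 1 mutant animal each, which holds animal and hybridisation together. The spread between wild-type animals is not in it.

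Named in each complex were the 3 tested probes with the lowest p, probes with 1 sign on 5 arrays, the 2 with the smallest SD on 5 arrays, genes with several tested probes, catalytic and cofactor-bearing subunits and tissue-restricted isoforms, and in other lists the gene with the lowest p on each side. Other members (Ndufb7, Ndufb11, Atp5g3, Atp5h, Atp5k, Cox6a1, Cox8a) were named after their values were seen. Members and lists were chosen with earlier results of these data known. Alternatives were array centring and scaling, no dye term, filters of 3 and 5 arrays, whole-number ratios left out, the Cy3 arrays turned, robust eBayes, array weights, averaged probes and each replicate left out.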

Additional observations from a re-analysis of the deposited data

Results flagged for a closer look

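For 9 of the 53 named member probes with 4 or 5 values, 1 array stood apart from the others by Dixon's test at the 95% level. Each array holds 1 animal, so animal and hybridisation cannot be told apart here either. Of the member probes measured on all 5 arrays, 10 of 63 (15.9%) met that limit, against 8.85% of all 6364 such probes. Chance gives about 5%, or 1 probe in 20, for a probe taken alone. Member probes shared the order of arrays described above, so their flags are not independent.

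In 7 of the 9, replicate 1 stood above the other 4 arrays, as in the order already described. Ndufs6 (probe 15918) had 0.77 there, against -0.54 to -0.26 on the others. Uqcrc2 had 0.60, against -0.34 to -0.09, and Uqcrfs1 had 0.93, against -0.30 to 0.02. Uqcrq (probe 13543) had 0.49, against -0.47 to -0.22, and Cox4i1 (probe 16715) had 0.69, against -0.47 to -0.14. Atp5a1 (probe 6862) had 0.82, against -0.55 to -0.17, and Atp5l (probe 16351) had 0.81, against -0.54 to -0.23. These probes belong to complexes I, III, IV and V.

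Ndufv2 (probe 3759) was the reverse, with -1.85 on replicate 1, against 0.66 to 1.62 on the others. Atp5b (probe 13301) had 4.82 on replicate 4, against -0.57 to 0.73.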

How the results depend on the processing

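No paired analysis was possible because all arrays belong to 1 group set against 1 pool. No alternative gave a called member probe or a called probe of the whole array. Counting Ndufa4 and Atp5s under other complexes was not run, since no member probe carried those names. At an unadjusted p under 0.05 there was 1 member probe of 71, against 4.16% of all probes. Without the dye term there were 2 of 71 (Ndufs3 and Uqcr11), against 3.32% of all. With 3 arrays enough there were 2 of 83 (Ndufs3 and Atp5h), against 4.08%. With whole-number ratios left out there were 0 of 49, against 4.13%. With single replicates left out there were 1 to 4. Without replicate 1 it was 3 of 72, against 6.32%, and without replicate 2 it was 2 of 77, against 3.57%. Without replicate 3 it was 1 of 73, against 3.99%, and without replicate 4 it was 2 of 80, against 4.43%. Without replicate 5 it was 4 of 74, against 5.47%. The count below 0 was 54 of 71, against 46.1% of all probes. With whole-number ratios left out it was 35 of 49, against 45.9%. With the Cy3 arrays turned it was 26 of 71, against 54.5%. With single replicates left out it was 45 to 59 (59.7% to 81.9%), against 42.7% to 51.5% of all. With the Cy3 arrays turned, the median coefficient turned to 0.06 over all members, 0.24 for complex II, 0.11 for III, 0.11 for IV and 0.14 for V, and was -0.01 for I. The median of complex III, -0.08, was -0.50 with the probes of a gene averaged. With single replicates left out, the medians ranged from -0.26 to -0.05 over all members, -0.30 to -0.05 for complex I, -0.30 to -0.06 for II, -0.48 to 0.00 for III, -0.29 to -0.04 for IV and -0.33 to -0.01 for V. Among 53 named probes, the sign of the coefficient changed for 1 with centring, 31 with the Cy3 arrays turned and 4 to 8 with 1 replicate left out. Turning the Cy3 arrays makes the mutant coefficient equal to the dye coefficient of the fit without turning, so this setting restates the dye term. The cause of the other changes was not tested. With the probes of a gene averaged, the median on replicate 1 was -0.51 for complex III and -0.06 for complex IV, where it had been 0.17 for both; with only probes measured on all 5 arrays it was 0.55 and 0.50. The values hold no signal over background, so which probes were dim is not known.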
